A study of Homo sapiens with 3 samples.

Results

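The subject is the set of m6A regions that fall in EXT1 in nuclear RNA of MDA-MB-231 cells. In N6-methyladenosine (m6A), an adenosine of RNA carries a methyl group, and MDA-MB-231 is an established human breast cancer cell line. A region was counted when its midpoint lay between 118811001 and 119125000 of chromosome 8 in hg19, on either strand, which are the limits given for EXT1, a gene transcribed from the minus strand. The rule found 268 of the 41836 regions deposited for the series, or 0.641%. The study compared RNA captured from the nuclear fraction with a rabbit antibody against m6A (2 libraries, numbered 1 and 2) with RNA captured by rabbit IgG (1 library). All 3 libraries came from the same line, with no treatment named, and the labels name no separate cultures. The deposited outcome is 1 list of regions that holds no value per library, so depth, enrichment over IgG and replicate spread are unknown for EXT1, and every value below is a description without a replicate error.

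EXT1 encodes exostosin-1, a glycosyltransferase of the endoplasmic reticulum and Golgi apparatus that works together with EXT2 to lengthen heparan sulfate chains on proteoglycans. Loss of 1 working copy of the gene causes hereditary multiple osteochondromas. The m6A mark is added in the nucleus by a complex of METTL3 and METTL14, and nuclear RNA holds unspliced precursors, so marks in introns can be captured there along with those in exons. In GENCODE release 29, on the GRCh38 build, the main EXT1 transcript has 11 exons over 317 kb. Its first exon is 1.77 kb long, its first intron spans 273 kb (86.0% of the gene), and the 10 exons that follow lie within the last 42.7 kb. These are lengths only: hg19 exon limits were not used here, and no region was assigned to an exon or an intron.

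EXT1 was chosen because it held the most m6A regions, and the count is therefore a description. With 268 regions in 314 kb it held 0.854 regions per kb, or 1 per 1.17 kb. Windows of the same length were laid end to end along each chromosome, while the EXT1 window was fitted to the gene. Where the laid windows held any region (5206 windows), the median was 4. The fullest elsewhere, on chromosome 6 from 30458001 to 30772000, held 97. Such a layout can cut a cluster. On chromosome 2, 55 plus-strand regions lay from 92284317 to 92325923 and 52 minus-strand regions from 92269078 to 92325754. A window fitted there would hold more than 97. The regions of EXT1 covered 19.5 kb, or 6.22% of the locus, and 0.841% of the sequence covered by the whole list. The covered length was 2.36 times the summed exon length of the GENCODE transcript (8.27 kb), so at least 11.2 kb of it exceeded what those exons could hold. All 268 regions lay wholly inside the limits.

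Nearly all regions were on the strand of the gene. The minus strand carried 267 of them and the plus strand 1, a minus-strand share of 99.6%. The single plus-strand region, 44 nt wide, ran from 119117907 to 119117950, 7.07 kb from the promoter end of the locus. It lay between minus-strand regions 417 nt upstream and 360 nt downstream of it and overlapped neither. In the whole list 57.4% of regions were on the minus strand, and 57.1% were without EXT1. Opposite-strand regions were also few in most other large chains, meaning chains of 20 or more same-strand regions with gaps of up to 10 kb. Of these 142 chains, 102 had no region on the opposite strand within their limits, 19 had 1 and 21 had more. They held 20 to 91 regions, against 254 in the EXT1 chain, so only a count of 0 could match its share. EXT1 supplied 18.4% of the 1454 minus-strand regions of chromosome 8. Without it the minus share of that chromosome went from 75.1% to 71.2% (1187 of 1667 regions), still above the 56.5% of the other chromosomes together.

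Regions were most frequent toward the promoter end, taken as position 119125000, and thinned out along the direction of transcription. The first minus-strand region, from 119123805 to 119123928 (124 nt), lay 1072 nt inside that end. The end is a limit given in whole kb, not a mapped transcript start. Distances from it are therefore not exact distances from the start site. The 157 kb nearest the promoter end held 190 minus-strand regions and the other 157 kb held 77, a ratio of 2.47. The 4 successive stretches of 78.5 kb, counted from the promoter end, held 112, 78, 62 and 15. The median distance from the promoter end was 99.3 kb, and the mean relative position was 0.356 (SD 0.246 over 267 regions, with 0 at the promoter end and 1 at the far end).

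**Figure D1:**
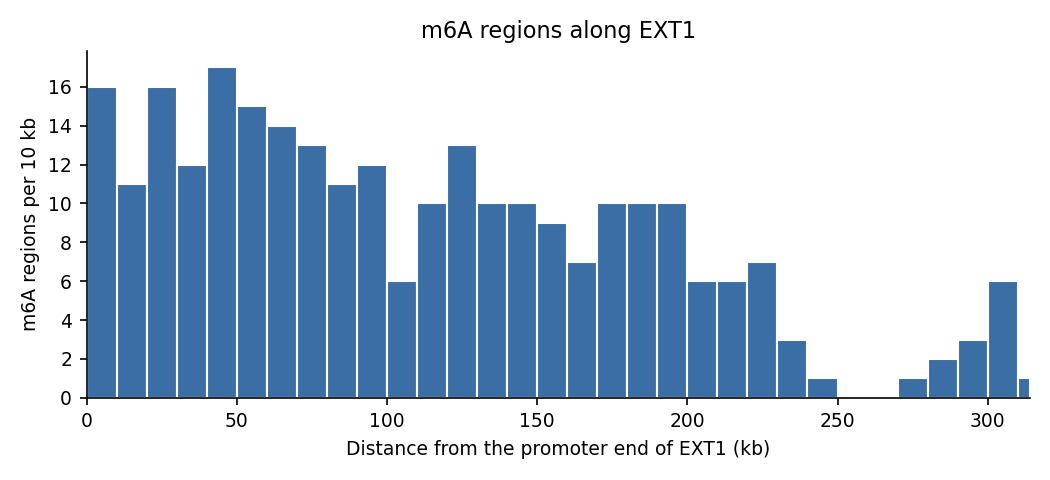
Number of m6A regions (both strands) in each 10 kb of EXT1 against distance in kb from the promoter end; the last bar covers 4 kb. Bars stand between 11 and 17 over the first 100 kb, between 6 and 13 over the next 100 kb, and at 0 from 250 to 270 kb, and rise again to 6 at 300 to 310 kb.

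The number per 10 kb varied around this fall. Over the first 100 kb each 10 kb held 11 to 17 regions, with a mean of 13.7 (SD 2.21 over 10 bins). From 100 to 200 kb the range was 6 to 13 and the mean 9.5 (SD 1.90 over 10 bins). From 200 to 250 kb it was 1 to 7 and the mean 4.6 (SD 2.51 over 5 bins). These SDs describe the spread along 1 locus and not between samples. Every one of the first 25 bins, 250 kb in all, held at least 1 region. The longest unbroken row of occupied 10-kb bins elsewhere in the list, on chromosome 6 from 30500001 to 30720000, had 22 bins and 92 regions.

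The region nearest the promoter end opened a run of 15 minus-strand regions with gaps of at most 1 kb, from 119115596 to 119123928. These covered 20.1% of 8.33 kb. The first 10 kb of the locus held 16 regions, the plus-strand one included. Their widths were 124, 191, 297, 49, 168, 81, 54, 114, 102, 59, 74, 44, 66, 54, 25 and 221 nt in the order of transcription. Regions over 100 nt, 7 in number, were thus on both sides of narrow ones, and the widest of the stretch, from 119122265 to 119122561, stood behind 2 others counted from the promoter end. The median there was 77.5 nt, against 49 nt over the 239 regions from 10 to 250 kb, of which 18.8% were over 100 nt.

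The fullest 10 kb lay 40 to 50 kb from the promoter end, with 17 regions from 119075750 to 119085026. The first of these in the direction of transcription was the second widest of the locus, 369 nt, from 119084658 to 119085026. The other 16 were 20 to 133 nt wide. The gap that followed each of the 17 ran from 118 to 2292 nt. The lead of this bin was small and depended on bin size. The bins from 0 to 10 kb and from 20 to 30 kb held 16 regions each. In bins of 5 kb, those from 5 to 10 kb and from 40 to 45 kb held 10 each. A run of 15 regions with gaps of at most 1 kb also lay from 119065619 to 119073457, where regions covered 16.3% of 7.84 kb, and a run of 10 from 119080809 to 119085026, where they covered 18.8% of 4.22 kb. When regions at most 1 kb apart were joined, the 267 minus-strand regions fell into 96 clusters, of which 47 were single regions and 21 held 5 or more (146 regions). No other cluster reached 10 regions.

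The main chain, joined with gaps of up to 10 kb, held 254 of the 267 minus-strand regions, from 118877760 to 119123928, and ended 247 kb from the promoter end. It covered 7.52% of its 246 kb. The longest gap of the locus followed it. This gap, 25.7 kb, separated the region from 118877760 to 118877810 (51 nt) from that from 118851979 to 118852019 (41 nt), and its centre lay 260 kb from the promoter end. The next longest gaps stood on either side of it, 9.52 kb before the last region of the chain and 9.43 kb after the 41-nt region. Gaps of 5.38 kb, between the regions that start at 118826465 and 118831926, and of 5.11 kb, between those that start at 118811827 and 118816967, came next. All 5 were centred 242 kb or more from the promoter end.

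Beyond the long gap the far end of EXT1 held 13 minus-strand regions in 41.0 kb, a density of 0.317 per kb against 1.03 per kb in the main chain. With the gap included, the density was 0.195 per kb over 66.8 kb. In the order of transcription, the first 7 started at 118851979, 118842477, 118838876, 118834790, 118831926, 118826465 and 118823634, with widths of 41, 71, 27, 25, 96, 85 and 44 nt. Each of these stood 2.77 kb or more from the next region upstream, and none exceeded 100 nt. A tighter group of 5 followed from 118816967 to 118819523. Its regions, in the order of transcription, were 44, 161, 136, 49 and 158 nt wide, and the gaps between them were 509, 281, 127 and 1092 nt. This group held the 3 regions over 100 nt of the far end. The last region, of 26 nt, ran from 118811827 to 118811852, only 826 nt inside the far limit.

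The limits set the far end less sharply than the promoter end. They span 314 kb, less than the 317 kb of the GENCODE transcript on GRCh38. Whether regions just beyond the far limit lie in EXT1 was not determined. Beyond the far limit, minus-strand regions lay from 118807141 to 118807187 (47 nt, 3.81 kb outside) and from 118800938 to 118800958 (21 nt, 10.0 kb outside). With the 13 far regions they formed 1 chain of 15, so that 2 regions just outside are joined to those inside by gaps of up to 10 kb. A further region stood 31.0 kb outside. On the promoter side the nearest minus-strand region outside the limits began at 119202740, 77.7 kb away. The nearest plus-strand regions outside were 2333 kb beyond the promoter limit and 5394 kb beyond the far limit.

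**Figure D2:**
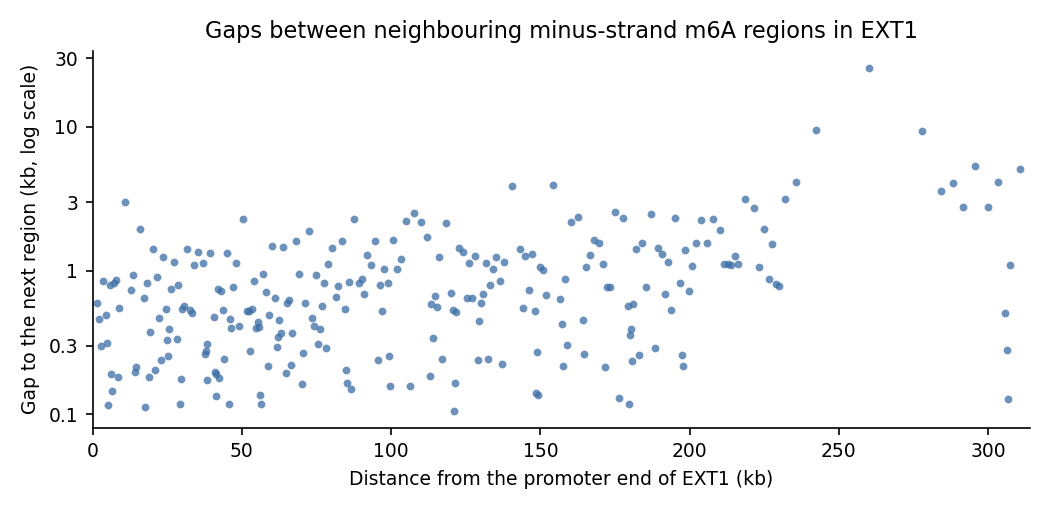
Gap in kb (log scale) between each pair of neighbouring minus-strand regions against the distance in kb of its centre from the promoter end of EXT1; each of the 266 points is 1 gap. The lowest points rise beyond 200 kb, where no gap centred before 300 kb is shorter than 0.782 kb, and the highest point, 25.7 kb, lies 260 kb from the promoter end.

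Gaps between neighbouring minus-strand regions had a median of 698 nt, with quartiles of 330 and 1254 nt (266 gaps). Of these, 31 were at most 200 nt, 94 at most 500 nt and 171 at most 1 kb (64.3%), and 13 were over 3 kb. The median gap downstream of a region grew over the 4 stretches of 78.5 kb, from 484 and 754 to 1104 and 3818 nt. The 231 gaps centred before 200 kb had a median of 595 nt. The 29 gaps centred between 200 and 300 kb had a median of 1955 nt and the shortest was 782 nt, a length under which 143 of the 231 earlier gaps (61.9%) fell. Gaps under that length were thus listed before 200 kb and in the group of 5 beyond 300 kb, and not in between. Successive gaps were weakly alike in length (Spearman rho 0.22 over 265 pairs in this 1 locus). The lengthening of gaps along the locus was not removed from this value.

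The shortest gap, 106 nt, lay between the regions from 119003695 to 119003811 (117 nt) and from 119003918 to 119003941 (24 nt), 121 kb from the promoter end. The next were 113 nt, between regions of 173 and 191 nt from 119107084 to 119107560, and 116 nt, between regions of 114 and 54 nt from 119119731 to 119120014. Gaps of 118 nt occurred at 4 places, just upstream of the regions that begin at 118945220, 119068532, 119079217 and 119095605. No gap in the whole list was below 101 nt on 1 strand, and each deposited name includes "merged"; how regions were joined is not given in the labels, and its part in the spacing was not tested.

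**Figure D3:**
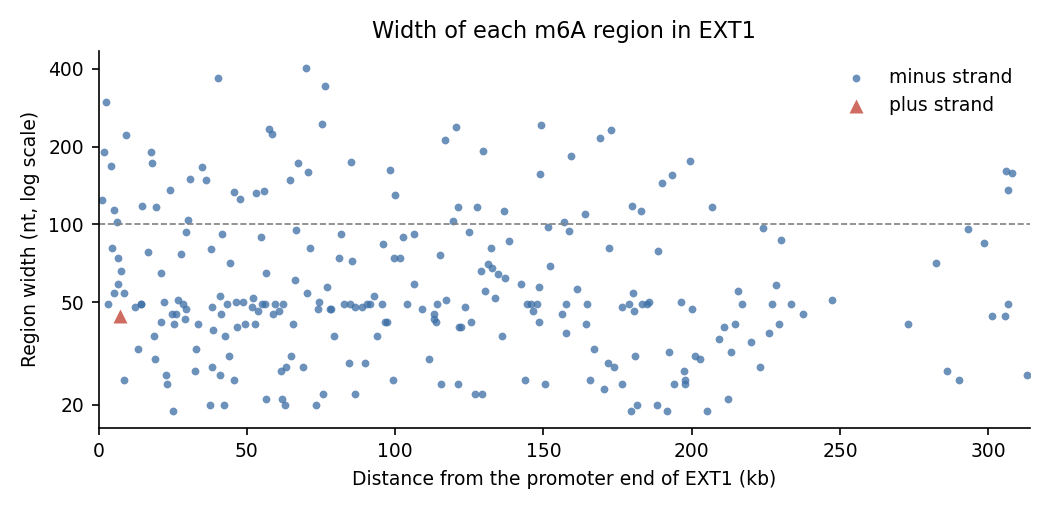
Width in nt (log scale) of each of the 268 m6A regions against distance in kb from the promoter end of EXT1; circles are minus-strand regions, the triangle the plus-strand region, and the dashed line marks 100 nt. Regions over 100 nt occur from the promoter end to 210 kb and again from 306 to 308 kb, with a band of points at 49 nt along most of the locus.

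Most regions of EXT1 were narrow. Widths ran from 19 to 403 nt around a median of 49 nt (quartiles 38 and 87.5). Exactly 49 nt was measured for 28 regions, and the next most frequent value, 41 nt, for 9. Regions under 30 nt numbered 47, and 4 had the smallest width of 19 nt. Regions over 100 nt numbered 55 (20.5%), against 10.2% of the 41568 regions elsewhere, whose median was 45 nt. In the other 142 chains of 20 or more regions, pooled, 17.1% were over 100 nt and the median was 49 nt, so the EXT1 widths were nearer to those of other large chains than to those of the list. The share of 49-nt regions was 10.4%, against 8.78% of all regions elsewhere, 8.89% in the other large chains and 11.5% of the minus-strand regions elsewhere. Regions of 1 gene share their libraries and caller, and these shares were not tested.

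The 10 widest regions were spread over the first 173 kb. The widest, of 403 nt, ran from 119054860 to 119055262, 69.9 kb from the promoter end. Next came the 369-nt region of the fullest 10 kb and a 342-nt region from 119048436 to 119048777. The 297-nt region near the promoter end came after these in width, followed by a region of 245 nt from 119049505 to 119049749. Neighbours of 234 nt (119067356 to 119067589) and 224 nt (119066424 to 119066647) were separated by 708 nt. The others were of 242 nt from 118975601 to 118975842, of 237 nt from 119004475 to 119004711 and of 231 nt from 118951973 to 118952203. All 10 were on the minus strand, and 6 of them lay between 40 and 77 kb from the promoter end.

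Width followed position and spacing only weakly. Over the 267 minus-strand regions, Spearman's rho was -0.12 between width and distance from the promoter end and -0.06 between width and the gap to the nearest neighbour. The share over 100 nt was 25.9, 16.7 and 16.1% in the first 3 stretches of 78.5 kb and 3 of 15 regions in the last. From 200 to 250 kb, 1 of 23 regions was over 100 nt and the median was 41 nt. By spacing, 20.8% of the 106 regions with a neighbour within 300 nt were over 100 nt, 23.7% of the 114 with the nearest at more than 300 and up to 1000 nt, and 6 of the 47 with none within 1000 nt. Neighbouring regions were not alike in width (rho -0.06 over 266 pairs). Such weak correlations describe this locus and are not a finding.

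By number EXT1 stood far ahead of every other chain, but by number per kb over the whole chain it did not. The list held 143 chains of 20 or more same-strand regions. The EXT1 chain ranked first by regions (254, others 20 to 91, median 26) and by span (246 kb, others 13.2 to 133 kb). It ranked 13 by regions per kb (1.03, median of the others 0.571), 15 by covered share (7.52%, median 3.84%) and 27 by shortness of the median gap (679 nt, median of the others 1059 nt). The 12 chains with more regions per kb, 1.14 to 1.77, each spanned 13.2 to 41.6 kb and held 20 to 55 regions. Their spans are unlike the 246 kb of the EXT1 chain, whose sparser downstream part lowers its mean. In bins of 20 kb, EXT1 held 1.35, 1.4, 1.6 and 1.35 regions per kb over its first 80 kb. Beyond that its bins held at most 1.15. Stretches of EXT1 as short as these chains were not ranked among them. Over 10-kb bins, the fullest bin of EXT1 was matched or exceeded by 15 of 21917 occupied bins elsewhere, of which the fullest held 35. Bins of 11 or more regions numbered 11 in EXT1 and 111 in the rest of the list. EXT1 was thus the locus with the most regions and the longest chain. The word densest holds for a stretch of its length, but not per kb averaged over the whole chain.

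**Figure D4:**
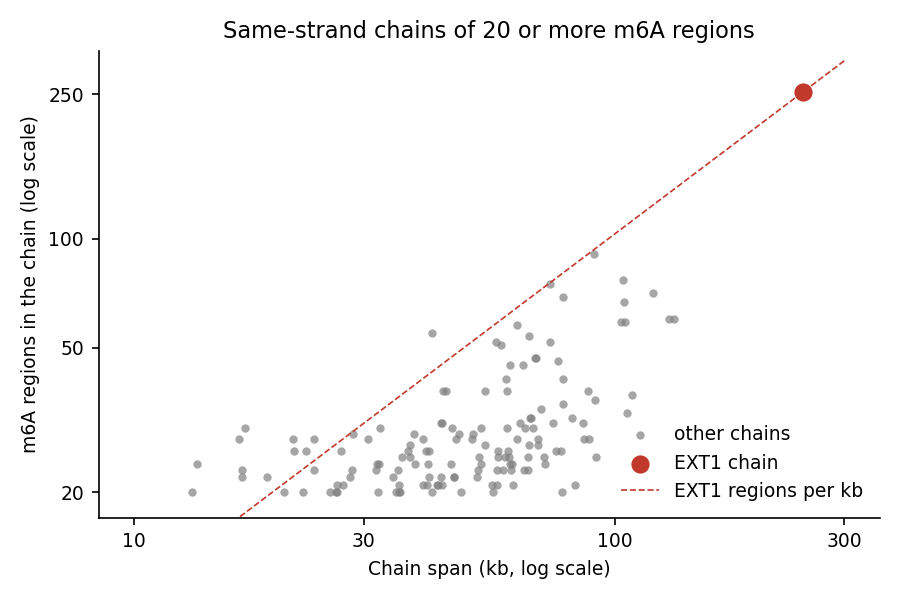
Number of m6A regions in each of the 143 same-strand chains of 20 or more regions against the span of the chain in kb, both on log scales; the large point is the EXT1 chain and the dashed line marks its 1.03 regions per kb. The EXT1 chain stands alone at 254 regions and 246 kb, and 12 shorter chains lie above the line.

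In other properties the EXT1 chain lay within the range of the large chains. Its share of regions over 100 nt, 20.5%, ranked 49 of 143, and its share of 49-nt regions, 10.6%, ranked 54. Within the limits of the chain the mean relative position was 0.411, against a median of 0.482 in the other 142 (quartiles 0.426 and 0.524), and it ranked 30 of 143 counted from the lowest. In EXT1 62.2% of the chain's regions were upstream of its middle, against a median of 54.2% in the others.

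The chains most like EXT1 were picked by the largest difference between cumulative curves of relative position, over the 16 other chains of 50 or more regions. The closest, a minus-strand chain on chromosome 1 from 94027451 to 94147353 (71 regions), differed by at most 0.086 of the regions. A plus-strand chain on chromosome 2 from 87755431 to 87817915 (58 regions) differed by 0.098, and a minus-strand chain on chromosome 3 from 65891078 to 66023947 (60 regions) by 0.12. The shares of their regions upstream of the middle were 60.6, 70.7 and 63.3%, values taken from the same curves that picked them. In other measures the 3 were not all like the EXT1 chain (1.03 regions per kb, median gap 679 nt, 20.5% over 100 nt). In the same order they had 0.592, 0.928 and 0.452 regions per kb. Their median gaps were 1134, 683 and 1807 nt, and 23.9, 22.4 and 5.0% of their regions were over 100 nt. The second largest chain of the list, on chromosome 11 from 121960534 to 122051177 (91 regions), had nearly the density of EXT1 (1.00 per kb) and the same median gap to within 1 nt (678 nt), but a more even profile (57.1% upstream, largest difference 0.144).

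**Figure D5:**
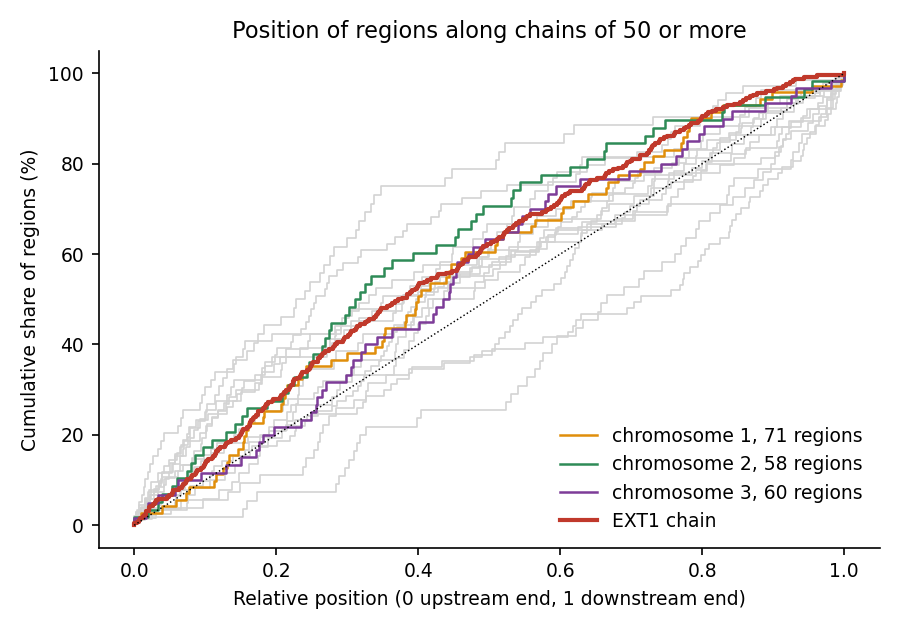
Cumulative share of regions in percent against relative position from the upstream end (0) to the downstream end (1) of each chain of 50 or more regions; the thick line is EXT1, the 3 coloured lines its closest chains, the grey lines the other 13, and the dotted diagonal an even spread. The EXT1 line runs above the diagonal over most of its length, with 62.2% of regions reached at 0.5.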

How the data were processed

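Nuclear RNA captured with an m6A antibody (2 libraries) or IgG (1 library) was sequenced. Per the labels' protocols, the RNA was barcoded with the ScriptSeq V2 kit, and per the submitters' processing notes reads were aligned with Bowtie2 to hg19. Not given in the sources used here are the peak caller, its thresholds and the pooling of libraries. The authors' list gives start and end positions and a deposited score of 1 for every region, and it holds 0 columns for a single library.

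Positions are printed counted from 1, and width is end minus start of the deposited record. Gaps run from the end of a region to the start of the next on the same strand. Chains joined same-strand regions at most 10 kb apart. No test was run: regions of 1 gene are not replicates. Members and lists were chosen with earlier results of these data known. Regions were named by rule: the first and last, the plus-strand region, the 10 widest, those at the 5 longest and 5 shortest gaps (with ties), at the limits and in the fullest bin; the first 10 kb, the far end and the comparisons with 10-kb bins elsewhere were added after values were seen. Gene assignments within hg19, motifs and the heparan sulfate gene list were not analysed here. Functions were tested on simulated regions. The software was numpy 2.4.6, scipy 1.17.1, pandas 2.3.3 and matplotlib 3.10.9 under Python 3.11.15.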

Additional observations from a re-analysis of the deposited data

How the results depend on the processing

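The number of regions in EXT1 was 268 under each rule for the limits and 237 after joining regions at most 200 nt apart, and it moved to 174 after joining at 500 nt, since close regions become 1. The minus-strand share was 100% among the 168 regions wider than the median of the list. That median is 45 nt and the only plus-strand region is 44 nt wide, so the filter itself fixed this share. The mean relative position, 0.356, moved to 0.405 after joining at 500 nt, 0.333 when weighted by width and 0.371 without the fullest 10 kb. The highest density, 1.7 regions per kb, was 2.0 in bins of 5 kb and 1.6 in bins of 20 kb. The median width was 50 nt without 49-nt regions, and the median gap was 768 nt between midpoints. EXT1 ranked first by number at each joining distance of 5, 10, 20 and 50 kb and in windows of 100 kb. The locus was chosen for its count, so these ranks are a description. At 50 kb the chain reached 118779966, beyond the far limit, and held 270 regions. The 100-kb windows elsewhere were laid end to end and not fitted to clusters. The 157 kb nearest the promoter end held 71.2% of minus-strand regions and 64.7% after joining at 500 nt, and 62.2% of the main chain lay upstream of its own middle; these alternatives were chosen after seeing the data. No paired analysis was possible because no library has values of its own in the list; leaving out a library could not be run for the same reason.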
